A study of Mus musculus with 30 samples.

Results

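The comparison described here asked whether hearts carrying the p.S55L mutation of CHCHD10 respond to pregnancy in the same way as wild-type (WT) hearts. For each gene it took the postpartum minus naive difference in S55L hearts and subtracted the postpartum minus naive difference in WT hearts, on the log2 scale. This quantity, called the difference of responses below, is positive where a gene was relatively higher after pregnancy in the mutant than in the wild type. It used 18 of the 30 samples of the series, all from the postpartum study. They were 5 WT naive, 4 WT postpartum (PP), 5 S55L naive and 4 S55L PP heart libraries. Columns 1 and 2 of WT PP held the same values, as did columns 1 and 2 of S55L PP, so each pair was counted once, as number 1.

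Naive mice of both genotypes were kept to 100 days of age. PP mice of both genotypes were mated at 65 days of age and collected 0 days after delivery. The labels give no strain, no zygosity of the S55L allele and no age at death for the PP mice, and they do not say that each library is a separate mouse. The p-values therefore measure the spread between these libraries, which may in part be technical. Naive and PP mice also differ in breeding, gestation and delivery together, and may differ in age, which cannot be told apart here.

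CHCHD10 is a small protein of the mitochondrial intermembrane space, and the S55L substitution is known to make it aggregate and to impair the respiratory chain in heart and muscle. Damaged mitochondria are known to switch on the integrated stress response, in which the transcription factor ATF4 raises genes of amino acid and one-carbon metabolism and the secreted factors GDF15 and FGF21. Pregnancy loads the heart with a larger blood volume and changes its fuel supply under the influence of progesterone, estrogen, placental lactogen and prolactin. The maternal heart normally grows reversibly, and failure of this adaptation around delivery is called peripartum cardiomyopathy.

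The 4 groups were read with 3' mRNA sequencing, in which each read is a tag near the end of a transcript. Reads on genes numbered 1418715 to 2307283 per WT naive library, 1897249 to 2949993 per WT PP library, 3369420 to 5131316 per S55L naive library and 2755500 to 4157372 per S55L PP library. Levels are given as CPM (read counts of a gene scaled to the library total) after scaling by trimmed means, and compare samples within a gene. The summed level of 10 cardiomyocyte markers was 37000 to 95500 CPM in the 18 libraries, and 12 liver, lung and thymus markers together reached 1.21 to 5.02 CPM.

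A well-like code of a letter and a number stands in the column headers, and the libraries in the outer letters, A and H, stood apart. On the second principal component those 5 libraries (WT naive 1, WT PP 1, WT PP 5, S55L PP 1 and S55L PP 5) lay at 15.1 to 32, and the other 13 lay at -19.1 to -0.2. The outer letters held 1 of 5 WT naive, 2 of 4 WT PP, 0 of 5 S55L naive and 2 of 4 S55L PP libraries. When an outer letter was added to the fit as a term, that term was called in 752 of 11945 genes (6.3%). The code's number also followed genotype, because all WT libraries but WT PP 1 carried number 1 and all S55L libraries carried number 2 or 3. WT PP 1 was the only WT library with number 2, and S55L PP 5 was the only S55L PP library with the number of the S55L naive libraries, since the other 3 carried number 3. A fit with that number as a term therefore sets the S55L response from S55L PP 5 alone, and it is left out of the settings counted below. The plot of the difference of responses by gene shows each named gene with and without the outer libraries, and some of these values are also given in the text.

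Chchd10, the mutated gene, was at 2390, 2870, 2930, 2820 and 2570 CPM in WT naive libraries 1 to 5 and at 2360, 3150, 2890 and 5240 CPM in WT PP libraries 1, 3, 4 and 5. It was at 4860, 4000, 5540, 4340 and 3760 CPM in S55L naive and at 3040, 4020, 3600 and 6020 CPM in S55L PP libraries. S55L naive libraries lay above WT naive libraries without overlap, whereas the PP groups overlapped. Its difference of responses was -0.44 with a standard error (SE) of 0.28 and an unadjusted p of 0.13 by edgeR's quasi-likelihood test, and -0.15 (unadjusted p = 0.55) without WT PP 5, the highest WT library. A tag count does not read the altered base, so these levels do not check the genotype labels.

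Across all genes, no difference of responses passed the test. Of 11945 genes tested, 0 (0%) had an adjusted p below 0.05 by edgeR's quasi-likelihood test with Benjamini-Hochberg adjustment. At an unadjusted p below 0.05 there were 444 genes (3.72%), of which 225 were more positive and 219 more negative in S55L. The DESeq2 test called 1 gene and limma voom called 0. The lowest adjusted p was 0.0736, for Ucp3, and the next was 0.997, for Alas2. The named genes below are therefore described by their values, and none of their differences of responses passed the adjusted threshold in this main fit. Ucp3 and Lgals4 were called in it only between PP and naive WT hearts. Some other settings called some of the named genes, as given at the end.

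Few genes were called in each response on its own. In WT hearts 2 of 11945 genes (0.0167%) were called between PP and naive, Ucp3 and Lgals4, and both fell. At an unadjusted p below 0.05 the WT response held 756 genes (6.33%), with 3.25% of genes higher and 3.08% lower in PP. In S55L hearts 0 genes (0%) were called between PP and naive by edgeR's quasi-likelihood test, with a lowest adjusted p of 0.0689, and 747 (6.25%) had an unadjusted p below 0.05, with 3.5% of genes higher and 2.75% lower in PP. The S55L response count depended on the tool, with 18 genes called by the DESeq2 test and 20 by limma voom, against 12 and 2 for the WT response. Across the 11945 genes, which are not independent replicates, the WT and S55L responses, made from separate libraries, had a Pearson correlation of 0.188 and a Spearman correlation of 0.173. Among the 2650 genes whose mean reached 50 CPM the Pearson correlation was 0.268.

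The precision of the difference of responses depended on the level of the gene. Its 95% confidence interval lay within a 2-fold change in either direction (1 on the log2 scale) for 6545 of 11922 genes with counts in every group (54.9%). This share was 13 of 1901 (0.684%) below 5 CPM, 4225 of 7371 (57.3%) from 5 to 50 CPM and 2307 of 2650 (87.1%) from 50 CPM. The median reach of the interval to either side was 1.27 below 5 CPM and 0.48 from 50 CPM, on the log2 scale. For most genes below 5 CPM a 2-fold difference of responses could therefore not be bounded. A narrow interval does not mean that a 2-fold difference would be called at the adjusted threshold. Ucp3, at a mean of 26.8 CPM, had a difference of 1.75 (SE 0.32) and an adjusted p of 0.074 by edgeR's quasi-likelihood test. The median SE over genes with counts in every group was 0.332. The count of 0 called genes therefore does not show that the responses were equal, at any level.

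**Figure D1:**
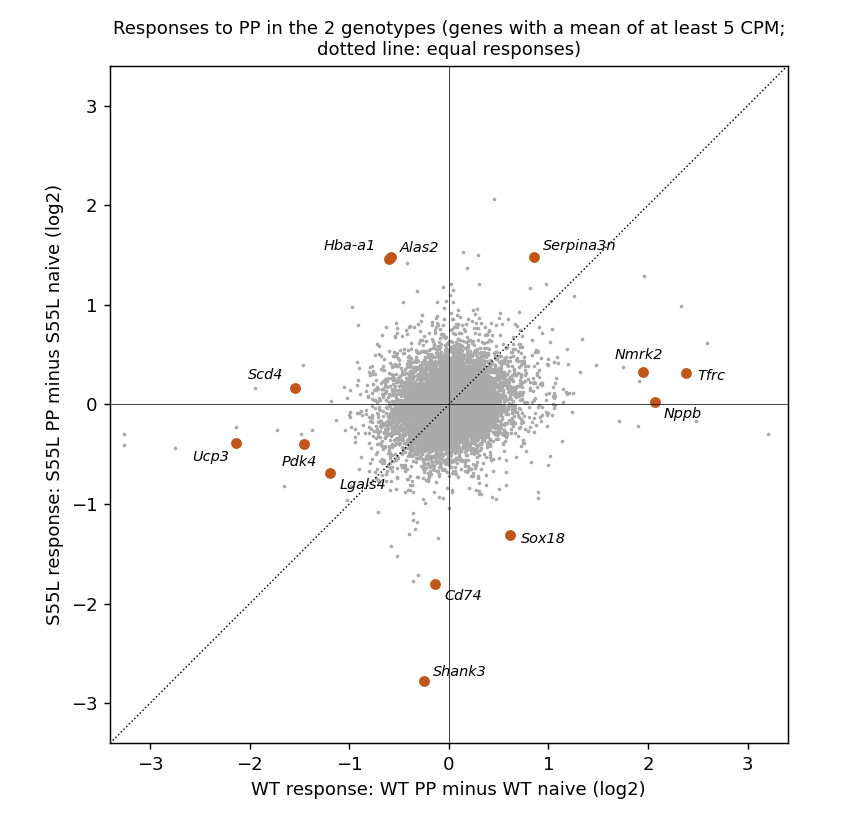
Each grey point is 1 of 10029 genes whose mean level reached 5 CPM, with its WT response to pregnancy (log2, PP minus naive) on the horizontal axis and its S55L response on the vertical axis. Orange points are named genes. Ucp3, Scd4, Pdk4 and Tfrc lie far along the WT axis and near 0 on the S55L axis, and Cd74 and Shank3 lie far down the S55L axis.

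The first group of named genes concerns fatty acid use, and Lgals4 is described beside it only because it was called in the WT response. UCP3 is a carrier of the inner mitochondrial membrane found in skeletal muscle and heart, and its gene is induced by fatty acids through the PPAR nuclear receptors. Galectin-4, encoded by Lgals4, is a sugar-binding lectin. Both genes lie on mouse chromosome 7. Because they were the only genes called in the WT response, the 250 bases before their annotated start are shown (RefSeq, GRCm38.p6, plus strand). Capitals in the Ucp3 sequence mark a match to the STAT element TTCNNNGAA. The Ucp3 stretch is chr7:100472741-100472990 and the Lgals4 stretch is chr7:28833544-28833793.
Ucp3: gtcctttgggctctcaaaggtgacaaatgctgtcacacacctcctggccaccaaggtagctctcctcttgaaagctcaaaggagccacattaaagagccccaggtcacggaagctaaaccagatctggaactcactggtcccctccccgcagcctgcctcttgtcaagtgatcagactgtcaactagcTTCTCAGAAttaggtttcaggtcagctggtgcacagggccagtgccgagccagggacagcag
Lgals4: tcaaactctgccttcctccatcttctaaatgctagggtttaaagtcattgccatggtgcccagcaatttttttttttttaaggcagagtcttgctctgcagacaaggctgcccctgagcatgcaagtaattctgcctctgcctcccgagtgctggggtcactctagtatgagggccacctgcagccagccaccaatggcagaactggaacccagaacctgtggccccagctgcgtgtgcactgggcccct

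The sequences were searched on both strands for 7 motifs. These were the CARE core TGATGNAA, the cyclic AMP response element TGACGTCA, the heat shock element core GAANNTTC, the canonical E-box CACGTG, the estrogen response element, the STAT element and the antioxidant response element core TGACNNNGC. STAT factors carry prolactin and growth hormone signals to genes. Of 11285 promoter windows of the same length, for 8769 tested genes, 5.62% held the STAT element, so the match in Ucp3 is a description and not evidence of binding. The Lgals4 window held none of the 7 motifs. Over all windows the share was 2.14% for the CARE core, 2.63% for the cyclic AMP response element, 4.93% for the heat shock element core, 8.48% for the E-box, 11.6% for the antioxidant response element core and 0% for the estrogen response element.

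Ucp3 was at 75.7, 49.8, 60.8, 57.4 and 39.6 CPM in WT naive libraries 1 to 5 and at 16, 10.6, 12.1 and 12.2 CPM in WT PP libraries 1, 3, 4 and 5. It was at 16.5, 16.6, 19, 20.2 and 19.4 CPM in S55L naive and at 9.22, 10.3, 15.3 and 21.5 CPM in S55L PP libraries. The WT groups did not overlap, and every S55L library, naive or PP, lay below every WT naive library. In WT hearts Ucp3 fell by 2.14 on the log2 scale (SE 0.23, adjusted p = 7e-06, edgeR). In S55L hearts the response was -0.39 (SE 0.21, adjusted p = 0.81), where the groups overlapped only through PP library 5.

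The difference of responses of Ucp3 was 1.75 on the log2 scale (SE 0.32, 95% interval 1.1 to 2.4, unadjusted p = 6.2e-06, adjusted p = 0.074, edgeR). It stayed positive under all 13 other settings of the analysis (1.55 to 2.04) and with each library left out in turn (1.49 to 1.9). It passed the adjusted threshold under 4 of those 13 settings and without each of 4 single libraries, so the call depended on the setting. The 4 libraries were WT naive 5 (1.86, adjusted p = 0.026), WT PP 1 (1.89, adjusted p = 0.03), S55L PP 1 (1.9, adjusted p = 0.011) and S55L PP 3 (1.88, adjusted p = 0.038). The difference was lowest without S55L PP 5, the highest S55L library (1.49, adjusted p = 0.17, edgeR). Without the 5 outer libraries it was 1.65 (adjusted p = 0.13). In naive hearts Ucp3 was lower in S55L than in WT, with a difference of -1.63 on the log2 scale (adjusted p = 1.5e-07, edgeR). In PP hearts the genotypes differed by 0.12 (adjusted p = 0.75, edgeR).

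Lgals4 also fell in WT hearts, and its estimates in the 2 genotypes lay nearer to each other than those of Ucp3. It was at 106, 74.3, 96.5, 84.9 and 88.1 CPM in WT naive and at 33.7, 42.4, 47.7 and 35.5 CPM in WT PP libraries. S55L libraries were at 7.71, 11.4, 12, 13.4 and 13.1 CPM in naive and at 7.27, 6.97, 6.19 and 8.11 CPM in PP libraries. The WT groups did not overlap, and the S55L groups overlapped only through naive library 1. Lgals4 fell by 1.19 in WT (SE 0.16, adjusted p = 0.00048, edgeR), and its S55L response was -0.69 (SE 0.2, adjusted p = 0.53). The difference of responses was 0.5 (SE 0.26, 95% interval -0.02 to 1.03, unadjusted p = 0.061), and 0.13 without the 5 outer libraries.

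Pdk4 encodes the kinase that shuts off pyruvate dehydrogenase when fat is burned, and it is a PPAR target like Ucp3. It was at 300, 123, 140, 184 and 97 CPM in WT naive and at 68.2, 40.7, 49.5 and 85.7 CPM in WT PP libraries, with no overlap. The mutant libraries were at 138, 122, 79.8, 136 and 192 CPM in naive and at 66.5, 120, 109 and 110 CPM in PP libraries, with overlap. The WT response was -1.46 (SE 0.31, adjusted p = 0.25) and the S55L response -0.4 (SE 0.3). The S55L minus WT response was 1.05 (SE 0.43, unadjusted p = 0.026) and ranged from 0.93 to 1.35 over the 13 other settings.

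Scd4 encodes a stearoyl-CoA desaturase, which makes monounsaturated fatty acids, and it was among the 5 genes with the lowest p. It was at 22.1, 11.4, 21.6, 20.7 and 26.7 CPM in WT naive and at 8.34, 3.35, 8.46 and 7.89 CPM in WT PP libraries. Levels in S55L were at 34.6, 24.3, 29.4, 48.9 and 33.4 CPM in naive and at 32.4, 59.3, 40.7 and 18.4 CPM in PP libraries. WT PP lay below WT naive without overlap, and the S55L groups overlapped fully. The responses (S55L minus WT) differed by 1.71 (SE 0.44, unadjusted p = 0.00064), and by 2.38 without the 5 outer libraries. S55L PP 5 was the lowest S55L library.

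The list of PPAR targets and fuel switches had 21 members tested. None passed the adjusted threshold, 4 were more positive at an unadjusted p below 0.05 and 0 more negative, against 1.88% and 1.83% of all genes. Its median difference of responses was 0.14, and 0.16 without Fgf21, which had no counts in WT, against 0 for all genes. The 4 were Ucp3, Pdk4, Angptl4 and Mlycd, the last 2 named after their values were seen. Angptl4, which encodes an inhibitor of lipoprotein lipase, had a WT response of -1.46, an S55L response of 0.39 and a difference of 1.85 (SE 0.73, unadjusted p = 0.02). Mlycd, whose enzyme degrades malonyl-CoA, had a difference of 0.49 (SE 0.23, unadjusted p = 0.046). Ppara itself had a difference of 0.18 (SE 0.46) and Ppargc1a of -0.45 (SE 0.23).

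Genes of fatty acid uptake and beta-oxidation were closer to 0. Of 28 members tested, 1 was more positive at an unadjusted p below 0.05 (Slc27a1, a fatty acid transporter, 0.67, SE 0.32) and 0 were more negative. That share of 3.57% lay near the 3.72% of all genes, and the median was 0.11. Acsl1, which activates fatty acids, was at 696 to 824 CPM (WT naive), 625 to 781 (WT PP), 244 to 347 (S55L naive) and 278 to 303 CPM (S55L PP). Its difference of responses was 0.11 (95% interval -0.27 to 0.48). Cpt1b, which encodes the muscle carnitine palmitoyltransferase, did not pass the filter on low counts, because only 1 WT naive library had any of its reads. Whether its reads were lost in counting was not tested, so these counts do not show that the gene is silent.

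The glycolysis and glucose uptake list was mostly negative. Of 25 members tested, 0 were more positive and 2 more negative at an unadjusted p below 0.05 (8%, against 3.72% of all genes). A negative difference of responses was held by 20, against 6049 of all 11945 genes, and the median was -0.22. The 2 were Pfkfb2 (-1.24, SE 0.38, unadjusted p = 0.003), which encodes the heart enzyme that makes the activator of phosphofructokinase, and Pfkl (-0.76, SE 0.34, unadjusted p = 0.033), a phosphofructokinase subunit. Pfkfb2 had a WT response of 0.77 and an S55L response of -0.47. The lean to negative values was not particular to this list. Negative values were held by 32 of 42 mitochondrial ribosome genes, 30 of 42 nuclear genes of complexes II to V and 14 of 19 tricarboxylic acid cycle genes. Among the 28 genes of fatty acid uptake and beta-oxidation 9 were negative.

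**Figure D2:**
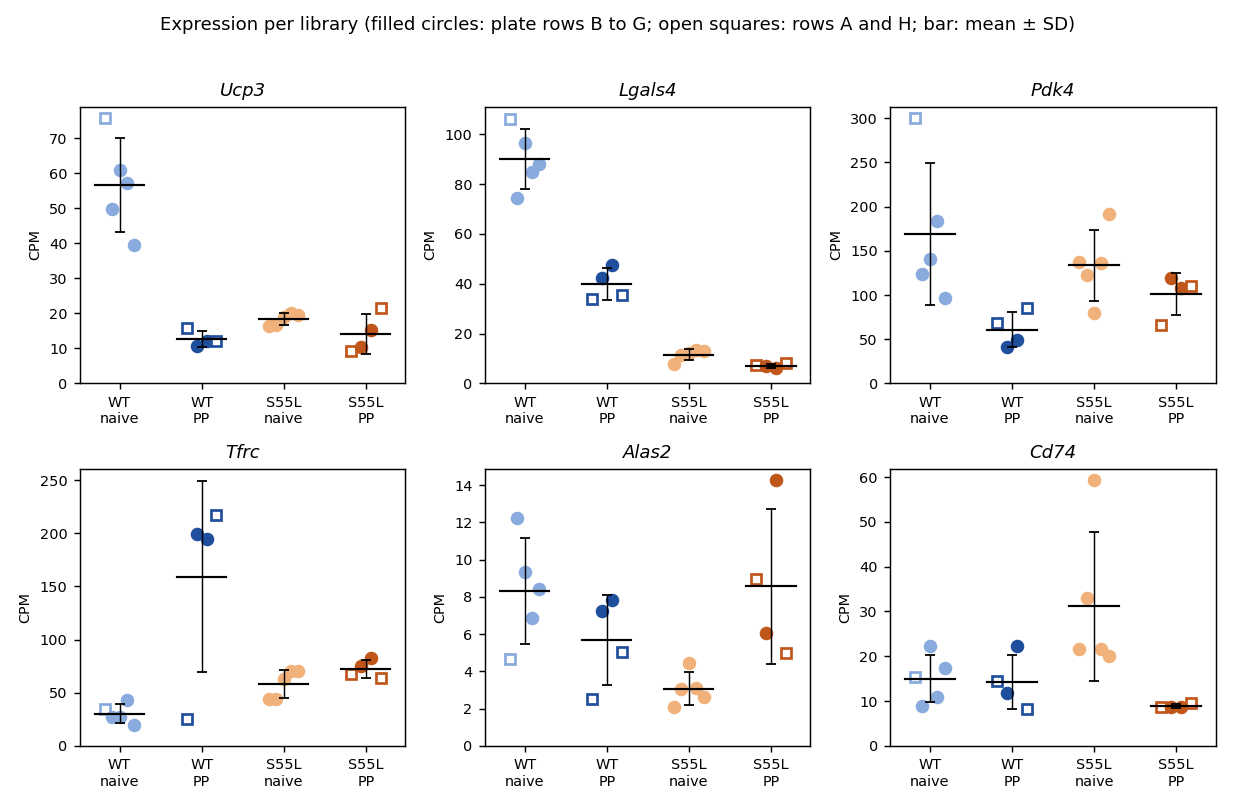
CPM of 6 genes in each library, by group on the horizontal axis, with open squares for the 5 libraries of the outer letters A and H and bars for the group mean ± SD. WT PP libraries of Ucp3 sit between 10.6 and 16 CPM, below all WT naive libraries, and 3 of 4 WT PP libraries of Tfrc sit at 194 to 218 CPM with WT PP 1 at 25 CPM.

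The second group concerns iron and red blood cells. Tfrc encodes the transferrin receptor, through which cells take up iron, and it is named because it was called under other settings. It was at 35, 26.9, 26.9, 43 and 19.8 CPM in WT naive libraries, and at 25, 200, 194 and 218 CPM in WT PP libraries 1, 3, 4 and 5. S55L libraries were at 44.4, 44.5, 62.4, 70.8 and 70.4 CPM in naive and at 67.6, 75.5, 82.9 and 63.9 CPM in PP libraries. WT PP libraries 3, 4 and 5 were higher than every other library, and WT PP 1 lay within the WT naive range.

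The WT response of Tfrc was 2.38 (SE 0.44, adjusted p = 0.22, edgeR), and the S55L response was 0.31 (SE 0.4, adjusted p = 0.93). Between genotypes (S55L minus WT) the responses differed by -2.07 (SE 0.6, 95% interval -3.34 to -0.8, unadjusted p = 0.0034, adjusted p = 0.997). WT PP 1 decided the call: without that library the difference was -2.43 (adjusted p = 8.6e-06, edgeR). It was -2.33 (adjusted p = 0.0032) without the 5 outer libraries, and -2.4 (adjusted p = 1.6e-05) without both libraries deposited in 2 columns. Over the 13 other settings it lay between -2.4 and -1.82.

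Most other genes of iron and heme handling had values nearer to 0. Of 13 members tested, 0 were more positive and 2 more negative at an unadjusted p below 0.05 (15.4%, against 3.72% of all genes). The median was -0.15. Besides Tfrc the second was Alas1, the general first enzyme of heme synthesis, with a difference of -0.48 (SE 0.21, unadjusted p = 0.034), a WT response of 0.57 and an S55L response of 0.09. Fth1, the ferritin heavy chain, had a difference of 0.03 (SE 0.22), and Slc40a1, the iron exporter ferroportin, one of 0.46 (SE 0.36).

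Alas2, the first enzyme of heme synthesis in red cell precursors, had the second lowest p. It was at 4.64, 12.2, 9.36, 6.88 and 8.41 CPM in WT naive and at 2.54, 7.26, 7.85 and 5.02 CPM in WT PP libraries. The mutant libraries were at 2.08, 3.04, 4.46, 3.13 and 2.62 CPM in naive and at 8.94, 6.07, 14.3 and 4.99 CPM in PP libraries. S55L PP lay above S55L naive without overlap, and the WT groups overlapped. The difference of responses was 2.06 (SE 0.5, 95% interval 1.03 to 3.09, unadjusted p = 0.00032). S55L PP 5, the only S55L PP library with the column number of S55L naive, was the lowest of the 4 PP libraries.

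All 6 erythroid markers tested had a positive difference of responses, against 5896 of all 11945 genes, with a median of 1.73. An unadjusted p below 0.05 was reached by 4 of them (66.7%, against 3.72% of all genes). Hba-a1 and Hba-a2, Hbb-bs and Hbb-bt encode the adult globin chains, and reads of such near-identical copies cannot be assigned with certainty. Their differences were 2.06 (SE 0.69), 1.84 (SE 0.67), 1.39 (SE 0.67) and 1.62 (SE 0.68). The summed level of 11 erythroid markers was 2940 to 5810 CPM (WT naive), 849 to 6330 (WT PP), 1600 to 3140 (S55L naive) and 3690 to 10900 CPM (S55L PP). S55L PP lay above S55L naive without overlap, while WT PP spanned the WT naive range, with WT PP 1 the lowest. The defining markers Epb42 and Hemgn had no counts in any library. The S55L PP library with the column number of S55L naive, S55L PP 5, was at 7300 CPM. For Hba-a1 it was at 31.49 CPM, within the S55L naive range of 21.59 to 37.53 CPM. S55L PP libraries 1, 3 and 4 were at 60.65, 83.58 and 141.4 CPM. With the column number as a term, where the S55L response rests on S55L PP 5 alone, the difference was 0.39 for Hba-a1 and 1.01 for Alas2. Over the 13 other settings the median of the erythroid list lay between 1.52 and 1.95. In bulk tissue the amount of a cell type and the RNA per cell cannot be told apart, and the part of residual blood in these values was not tested.

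The third group is the stress response. Genes of the integrated stress response differed between S55L and WT hearts by a median of 1.64 in naive and 1.59 in PP hearts on the log2 scale, and the median difference of responses was small beside that gap. Of 35 members tested, 2 were more positive and 3 more negative at an unadjusted p below 0.05 (14.3%, against 3.72% of all genes). The median was -0.19, and -0.17 without Fgf21 and Slc7a11, each of which had no counts in at least 1 WT group.

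Atf4 was at 48.4, 46.5, 43.3, 36.1 and 55.9 CPM in WT naive and at 59.1, 51.4, 41.1 and 98.3 CPM in WT PP libraries. Levels in S55L were at 306, 336, 291, 291 and 259 CPM in naive and at 245, 254, 195 and 328 CPM in PP libraries. Naive and PP overlapped within each genotype, and every S55L library was above every WT library. The S55L minus WT response was -0.67 (SE 0.27, 95% interval -1.23 to -0.11, unadjusted p = 0.02), and -0.36 (unadjusted p = 0.14) without WT PP 5, the highest WT library. Without the 5 outer libraries it was -0.44 (unadjusted p = 0.075).

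Of the secreted factors, Gdf15 was at 0 to 1.75 CPM (WT naive), 0.558 to 2.87 (WT PP), 105 to 248 (S55L naive) and 100 to 389 CPM (S55L PP). The responses (S55L minus WT) differed by -0.57 with an interval of -3.36 to 2.22, which the few WT counts leave wide. Fgf21 had no counts in any WT library and was at 3.79 to 9.59 CPM (S55L naive) and 1.96 to 5.62 CPM (S55L PP), so its difference of responses has no estimate. Trib3, a pseudokinase that restrains ATF4, had a difference of -0.22 (SE 0.64).

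Other members were named after their values were seen. Slc7a5, an amino acid transporter subunit, had a difference of -2.65 (SE 1.65, unadjusted p = 0.04) at a mean of 2.49 CPM. The 2 more positive members were Wars, the cytosolic tryptophanyl-tRNA synthetase (0.72, SE 0.28, unadjusted p = 0.016), and Slc7a1, the arginine and lysine transporter (0.49, SE 0.24, unadjusted p = 0.048).

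Serine, one-carbon and proline synthesis had 16 members tested, with a median of -0.17. Of these, 0 were more positive and 2 more negative at an unadjusted p below 0.05 (12.5%, against 3.72% of all genes). Mthfd2, the mitochondrial folate enzyme induced by ATF4, was at 0, 3.27, 2.92, 4.02 and 2.97 CPM in WT naive and at 6.17, 3.91, 6.64 and 4.66 CPM in WT PP libraries. S55L libraries were at 407, 340, 322, 299 and 261 CPM in naive and at 347, 372, 265 and 398 CPM in PP libraries. The naive and PP ranges overlapped in WT and in S55L. Its difference of responses was -0.97 (SE 0.45, 95% interval -1.89 to -0.04, unadjusted p = 0.036), from a WT response of 1.05 at a level of a few CPM and an S55L response of 0.08. It was -0.61 (unadjusted p = 0.098) without WT naive 1, which had no counts. On the CPM scale the Mthfd2 difference had the opposite sign, at 17 CPM. Its mean went from 2.63 to 5.34 CPM in WT and from 326 to 346 CPM in S55L. Aldh18a1, which makes the proline precursor, had a difference of -1.02 (SE 0.45, unadjusted p = 0.03). Phgdh, the first enzyme of serine synthesis, was at 0 to 0.816 CPM in WT and had a difference of -0.31 (SE 1.55).

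NAD is the electron carrier that feeds the respiratory chain. Nmrk2, the nicotinamide riboside kinase of stressed muscle, was at 11.3, 7.35, 10.5, 3.44 and 2.47 CPM in WT naive and at 6.17, 17.9, 7.25 and 72.8 CPM in WT PP libraries. The mutant libraries were at 245, 271, 214, 212 and 213 CPM in naive and at 475, 341, 166 and 180 CPM in PP libraries. WT PP 5 stood above the other WT libraries, and the naive and PP groups overlapped in both genotypes. Between genotypes (S55L minus WT) the responses differed by -1.62 (SE 0.91, unadjusted p = 0.089), and -0.2 (unadjusted p = 0.76) without WT PP 5. Nampt, the main salvage enzyme of NAD synthesis, had a difference of 0.16 (95% interval -0.38 to 0.71). Of 20 members of the NAD list, 1 (5%, against 3.72% of all genes) had an unadjusted p below 0.05, and the median was -0.16. That member was Nadk (-0.59, SE 0.27), which encodes NAD kinase.

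**Figure D3:**
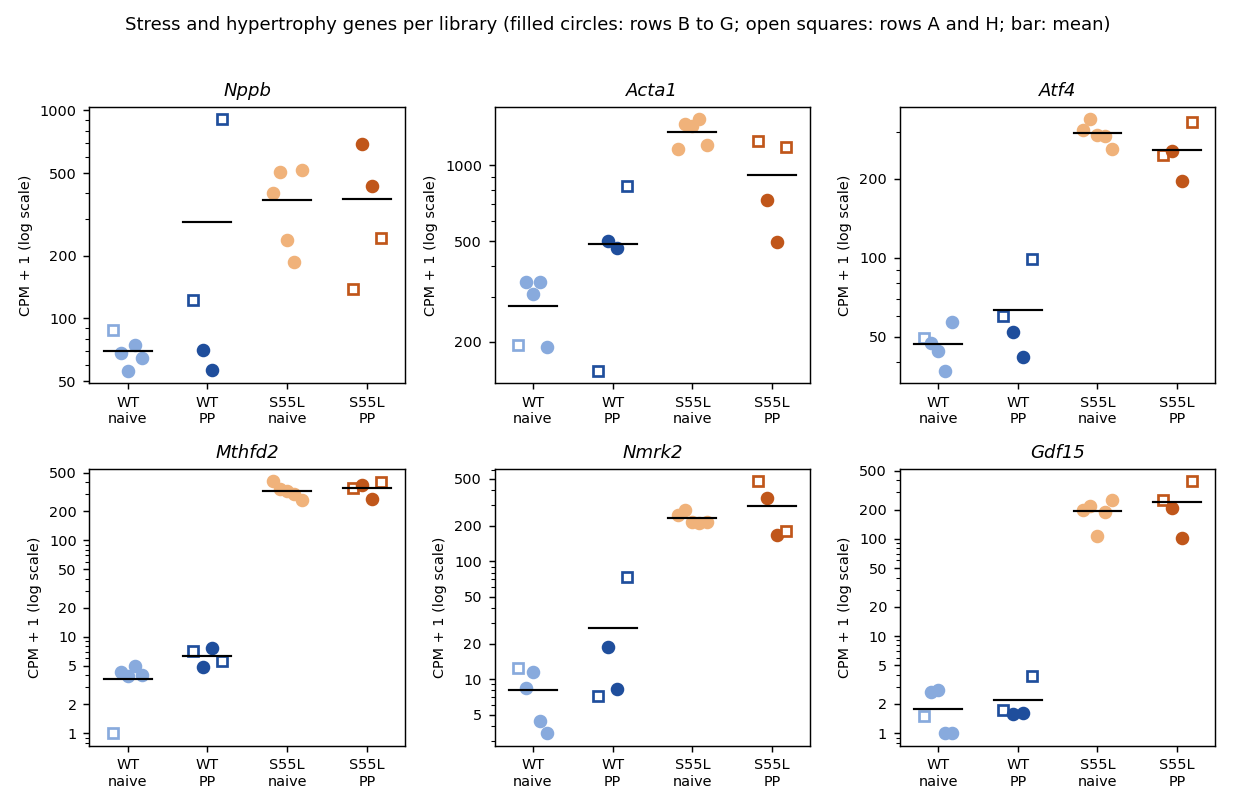
CPM + 1 on a log axis for 6 stress and hypertrophy genes in each library, by group on the horizontal axis, with open squares for the 5 libraries of the outer letters and bars for the group mean. Atf4, Mthfd2, Nmrk2 and Gdf15 are higher in every S55L library than in every WT library, and WT PP 5 is the highest WT library for Nppb (906.9 CPM), Acta1, Atf4, Nmrk2 and Gdf15.

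The fourth group holds hypertrophy and contraction genes. Skeletal alpha-actin, encoded by Acta1, returns in stressed adult heart muscle. It was at 193, 342, 309, 342 and 190 CPM in WT naive and at 152, 499, 469 and 827 CPM in WT PP libraries. Levels in S55L were at 1160, 1450, 1430, 1520 and 1200 CPM in naive and at 1240, 725, 493 and 1180 CPM in PP libraries. WT PP libraries 3, 4 and 5 were above all WT naive libraries, and S55L PP libraries 3 and 4 were below all S55L naive libraries.

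The WT response of Acta1 was 0.82 (SE 0.36) and the S55L response -0.58 (SE 0.36). The difference of responses was -1.4 (SE 0.51, 95% interval -2.48 to -0.32, unadjusted p = 0.015, adjusted p = 0.997, edgeR). Without the 5 outer libraries it was -1.88 (adjusted p = 0.0061). Acta1 was the only 1 of the 18 members tested of the heart failure and hypertrophy list with an unadjusted p below 0.05. That share was 5.56%, against 3.72% of all genes, and the median of the list was 0.06.

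Nppb encodes B-type natriuretic peptide, released by stretched ventricle. It was at 87.1, 66.9, 55, 73.4 and 63.3 CPM in WT naive and at 121, 69.2, 55.6 and 906.9 CPM in WT PP libraries. S55L libraries were at 399, 504, 237, 186 and 516 CPM in naive and at 138, 689, 434 and 242 CPM in PP libraries. WT PP 5 was the highest of all 18 libraries, and the other 3 WT PP libraries overlapped with WT naive. The difference of responses of -2.04 (SE 1.02, unadjusted p = 0.066) rested on that library: without WT PP 5 it was -0.23 (unadjusted p = 0.72), and without the 5 outer libraries 0.64.

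Nppa, atrial natriuretic peptide, was at 160 to 439 CPM (WT naive), 173 to 833 (WT PP), 754 to 3540 (S55L naive) and 3010 to 5040 CPM (S55L PP), with a difference of responses of 0.28 (95% interval -1.34 to 1.9). That difference was 0.84 without WT PP 5, 1.33 with limma voom and 1.41 (unadjusted p = 0.19) without the 5 outer libraries. Myh7 and Myh6 encode the slow fetal and the fast adult cardiac myosin heavy chains. Myh7 had a difference of -0.1 (SE 0.57) and Myh6 of -0.41 (SE 0.23, unadjusted p = 0.089). Atp2a2, the calcium pump of the sarcoplasmic reticulum, had a difference of -0.13 (95% interval -0.59 to 0.33), and Ryr2, the calcium release channel, one of 0.12 (95% interval -0.49 to 0.73). None of the 22 members tested of the calcium handling list and none of the 20 of the adult sarcomere list had an unadjusted p below 0.05, with medians of -0.13 and 0.01.

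The fifth group is immune. MHC class II genes present antigen on macrophages, dendritic cells and B cells, and their summed level was higher in S55L naive libraries than in all others. Cd74, the invariant chain that guides MHC class II to the endosome, was at 15.5, 8.98, 22.2, 10.9 and 17.3 CPM in WT naive and at 14.5, 11.7, 22.3 and 8.25 CPM in WT PP libraries. The mutant libraries were at 21.7, 33.1, 59.3, 21.6 and 20.1 CPM in naive and at 8.66, 8.76, 8.62 and 9.66 CPM in PP libraries. The S55L groups did not overlap, and the WT groups did.

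The S55L response of Cd74 was -1.8 (SE 0.32, adjusted p = 0.069, edgeR) and the WT response -0.14 (SE 0.36). The S55L minus WT response was -1.67 (SE 0.48, 95% interval -2.65 to -0.68, unadjusted p = 0.002), and -2.01 (unadjusted p = 0.031) without the 5 outer libraries. H2-Ab1 and H2-Eb1, which encode MHC class II beta chains, had differences of -1.41 (SE 0.54, unadjusted p = 0.018) and -0.84 (SE 0.38, unadjusted p = 0.039). All 5 members tested were negative, 4 of them (80%, against 3.72% of all genes) with an unadjusted p below 0.05. Their median was -1.41, with a range of -1.49 to -1.24 over the 13 other settings. The summed level of the 7 genes was 92.7 to 276 CPM (WT naive), 59.9 to 197 (WT PP), 316 to 658 (S55L naive) and 115 to 229 CPM (S55L PP). S55L PP lay below S55L naive without overlap.

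The macrophage markers showed another pattern. Their summed level was 333 to 412 CPM (WT naive), 460.7 to 586.1 (WT PP), 1740 to 2090 (S55L naive) and 1540 to 2730 CPM (S55L PP). WT PP lay above WT naive without overlap, and the S55L groups overlapped. All 12 markers had a negative difference of responses, against 6049 of all 11945 genes. An unadjusted p below 0.05 was reached by 3 (25%, against 3.72% of all genes). The median was -0.5, from a median WT response of 0.58 and a median S55L response of 0.07. The 3 were Fcgr1 (-1.42, SE 0.71), an antibody receptor, Ctss (-0.53, SE 0.24), the protease cathepsin S, and C1qc (-0.5, SE 0.24), a complement subunit. The median was -0.72 without the 5 outer libraries and lay between -0.72 and -0.44 over the 13 other settings.

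Msr1, the macrophage scavenger receptor, was among the 5 genes with the lowest p. It was at 0, 0, 0.585, 0 and 1.98 CPM in WT naive and at 2.18, 5.02, 3.62 and 3.23 CPM in WT PP libraries. Levels in S55L were at 9.38, 7.86, 11.4, 8.24 and 7.2 CPM in naive and at 8.38, 10.3, 5.65 and 6.86 CPM in PP libraries. The WT groups did not overlap, at counts of a few reads, and the S55L groups did. The responses (S55L minus WT) differed by -2.64 (SE 0.79, 95% interval -4.26 to -1.02, unadjusted p = 0.00063), and by -4.33 (unadjusted p = 1.8e-05) without WT naive 5, 1 of the 2 WT naive libraries with any reads of it.

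Serpina3n, a secreted protease inhibitor of the acute-phase response, was at 1.55 to 4.08 CPM (WT naive), 2.42 to 11.5 (WT PP), 8.81 to 19 (S55L naive) and 28.8 to 58 CPM (S55L PP). S55L PP lay above S55L naive without overlap, with an S55L response of 1.48 (SE 0.28, adjusted p = 0.069, edgeR). The WT response was 0.86 (SE 0.52), and the difference of responses 0.62 (95% interval -0.59 to 1.83). WT PP 5 held the highest WT level, and the difference was 1.56 (unadjusted p = 0.0078) without it, 1.81 (unadjusted p = 0.011) without the 5 outer libraries and 1.54 (unadjusted p = 0.022) with limma voom. Serpina3n was the only 1 of the 6 acute-phase genes tested with a positive difference of responses. The other 5 were negative, among them Ccl7 (-1.98, SE 1.19) and Ccl2 (-1.79, SE 1.06), and the median of the list was -0.97. None of the 6 acute-phase genes tested and none of the 16 interferon-stimulated genes tested had an unadjusted p below 0.05. Of the neutrophil markers Ly6g, Mpo, Ltf, Elane and Ngp had no counts in any library, as did the B cell marker Cd79a.

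The sixth group concerns vessels and matrix. Sox18, a transcription factor of blood and lymph vessel endothelium, was at 19.6, 19.6, 23.4, 25.2 and 13.9 CPM in WT naive and at 23.9, 33.5, 28.4 and 38 CPM in WT PP libraries. S55L libraries were at 27.7, 29.3, 30.3, 15.4 and 25.3 CPM in naive and at 1.96, 13.7, 16.2 and 9.04 CPM in PP libraries. WT PP libraries tended to the upper end of the WT range and S55L PP libraries to the lower end of the S55L range, with overlap in both genotypes. Between genotypes (S55L minus WT) the responses differed by -1.93 (SE 0.46, 95% interval -2.89 to -0.96, unadjusted p = 0.00041), and -1.41 without the 5 outer libraries.

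Of the endothelial markers, 0 of 12 tested had an unadjusted p below 0.05, and their median was 0.01. Among 21 factors linked to vessel growth and peripartum cardiomyopathy the median was -0.13. At an unadjusted p below 0.05, 0 were more positive and 3 more negative (14.3%, against 3.72% of all genes). They were Apln, the ligand apelin (-1.11, SE 0.46), Erbb2, the neuregulin co-receptor (-1.64, SE 0.81, mean 2.25 CPM), and Hif1a, the oxygen-regulated transcription factor (-0.47, SE 0.2). Vegfa, the main vessel growth factor, had a difference of -0.24 (95% interval -0.7 to 0.23). Of 22 genes of the prolactin, growth hormone and estrogen response, 1 had an unadjusted p below 0.05, the binding protein gene Igfbp5 (0.54, SE 0.25). That share of 4.55% lay near the share over all genes, and the median was -0.19.

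Matrix genes differed between S55L and WT hearts by a median of 1.3 in naive and 1.29 in PP hearts on the log2 scale, and none of 35 tested had an unadjusted p below 0.05 for the difference of responses (median 0.01). Col1a1, a chain of type I collagen, had a difference of -0.45 (SE 0.33). Postn, the matricellular protein periostin, was at 4.09 to 11.5 CPM (WT naive), 8.34 to 17.3 (WT PP), 29.8 to 63.8 (S55L naive) and 55 to 130 CPM (S55L PP), with a difference of 0.27 (95% interval -0.75 to 1.28).

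Shank3, which encodes a scaffold protein best known from synapses, was named after its values were seen. It was at 26.3, 24.5, 30.4, 31 and 7.92 CPM in WT naive and at 16, 25.1, 27.8 and 13.3 CPM in WT PP libraries. The mutant libraries were at 15.6, 7.86, 9.81, 2.27 and 5.89 CPM in naive and at 0.279, 2.02, 1.35 and 0.935 CPM in PP libraries. The S55L groups did not overlap, and the WT groups did. Its difference of responses was -2.53 (SE 0.78, unadjusted p = 0.0023), and -2.49 (unadjusted p = 0.034) without the 5 outer libraries.

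The seventh group is the respiratory chain, which the mutation is known to impair. Of 36 nuclear genes of complex I, the first pump of the chain, 0 were more positive and 1 more negative at an unadjusted p below 0.05 (Ndufa5, -0.53, SE 0.25), with a median of -0.09. Of 42 nuclear genes of complexes II to V, 0 were more positive and 2 more negative (Cox6a1, -0.57, and Atp5l, -0.56), with a median of -0.14. The shares of 2.78% for complex I and 4.76% for complexes II to V lay near the 3.72% of all genes. Cox7a1, the muscle form of a cytochrome oxidase subunit, was at 2120 to 2680 CPM (WT naive), 1860 to 2330 (WT PP), 403 to 557 (S55L naive) and 338 to 551 CPM (S55L PP). Its difference of responses was 0.18 (95% interval -0.25 to 0.61), so a 2-fold difference lay outside the interval. The 16 CHCHD and MICOS genes tested, which belong to the same family or to the cristae complex, had 0 members with an unadjusted p below 0.05 and a median of -0.11.

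Reads from the mitochondrial genome took 22.3% ± 1.85 (SD, n = 5) of reads on genes in WT naive, 20.9% ± 3.55 (n = 4) in WT PP, 14.4% ± 0.475 (n = 5) in S55L naive and 12.3% ± 3.06 (n = 4) in S55L PP libraries. For this share the difference of responses was -0.733 percentage points. It was not distinguishable from 0 by an exact 2-sided permutation test with naive and PP labels exchanged within each genotype (p = 0.78, 15876 regroupings). The 12 mitochondrially encoded mRNAs tested had a median difference of 0, and none had an unadjusted p below 0.05.

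The remaining lists, of 52 in all, are given by their counts. Of the 50 lists with a member tested, 43 had a median difference of responses within 0.25 of 0, and no member of any list passed the adjusted threshold. Over all genes, 3.72% had an unadjusted p below 0.05. That share was 9.09% for the unfolded protein response, 6.67% for p53, 9.52% for cell cycle and 5% for immediate early genes. It was 5.88% for the circadian list, 5.88% for growth signalling and 2.38% for the mitochondrial ribosome. The endoplasmic reticulum unfolded protein response had 2 of 22 members more positive at an unadjusted p below 0.05, Manf (1.08, SE 0.39) and Calr (0.79, SE 0.28), which encode a secreted stress factor and the chaperone calreticulin, with a median of 0.12. The p53 list had 1 of 15, Eda2r (-2.81, SE 0.9, unadjusted p = 0.0011), a receptor of the tumor necrosis factor family, at a mean of 3.01 CPM. The cell cycle list had Cenpf (1.12, SE 0.43) in 1 direction and Ccna2 (-2.13, SE 0.94) in the other. The immediate early list had Nr4a1 (1.73, SE 0.77), a nuclear receptor gene.

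The circadian list had Nfil3 (-0.99, SE 0.46), a repressor gene, the growth signalling list had Mtor (-0.48, SE 0.22), and the mitochondrial ribosome list had Mrps2 (-0.51, SE 0.25). No member of the heat shock, antioxidant, mitochondrial chaperone, proteasome, autophagy, cytosolic ribosome, tricarboxylic acid cycle, branched-chain amino acid or lipogenesis lists had an unadjusted p below 0.05. Ctsd, the lysosomal protease cathepsin D, which in peripartum cardiomyopathy is known for cutting prolactin, was at 743 to 963 CPM (WT naive), 736 to 974 (WT PP), 2100 to 3160 (S55L naive) and 2130 to 2690 CPM (S55L PP). Its difference of responses was 0.04 (95% interval -0.39 to 0.47).

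**Figure D4:**
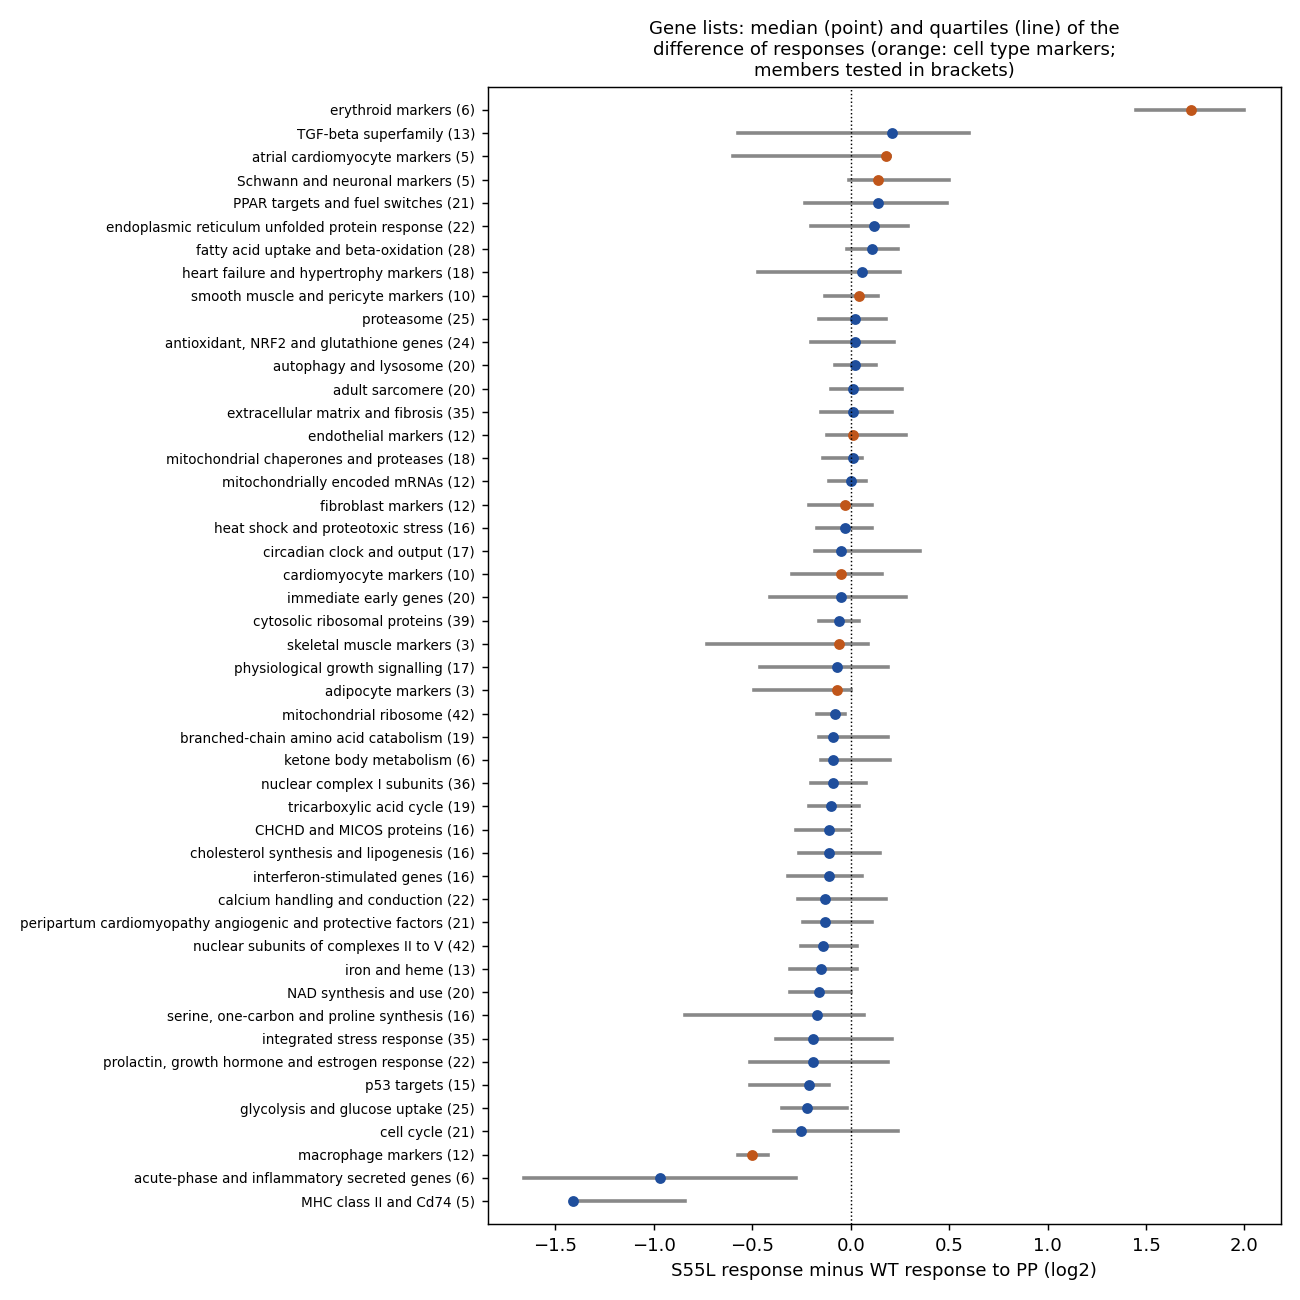
Median (point) and quartiles (line) of the difference of responses over the tested members of each gene list, on the log2 scale, with the number of members in brackets and cell type markers in orange. Most medians lie near 0, erythroid markers lie at 1.73 and MHC class II at -1.41.

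Summed levels of other cell type markers were compared to see what moved with these results. Cardiomyocyte markers summed to 78200 to 95500 CPM (WT naive), 77000 to 91000 (WT PP), 45700 to 61200 (S55L naive) and 37000 to 47500 CPM (S55L PP). Fibroblast markers summed to 2100 to 2810, 2320 to 2920, 3480 to 4250 and 3650 to 4690 CPM in the same order, and endothelial markers to 1850 to 2050, 1650 to 1910, 1170 to 1470 and 952 to 1680 CPM. Naive and PP ranges overlapped within both genotypes for each of these 3 lists. The part of any change in cell composition in the values above was not tested.

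**Figure D5:**
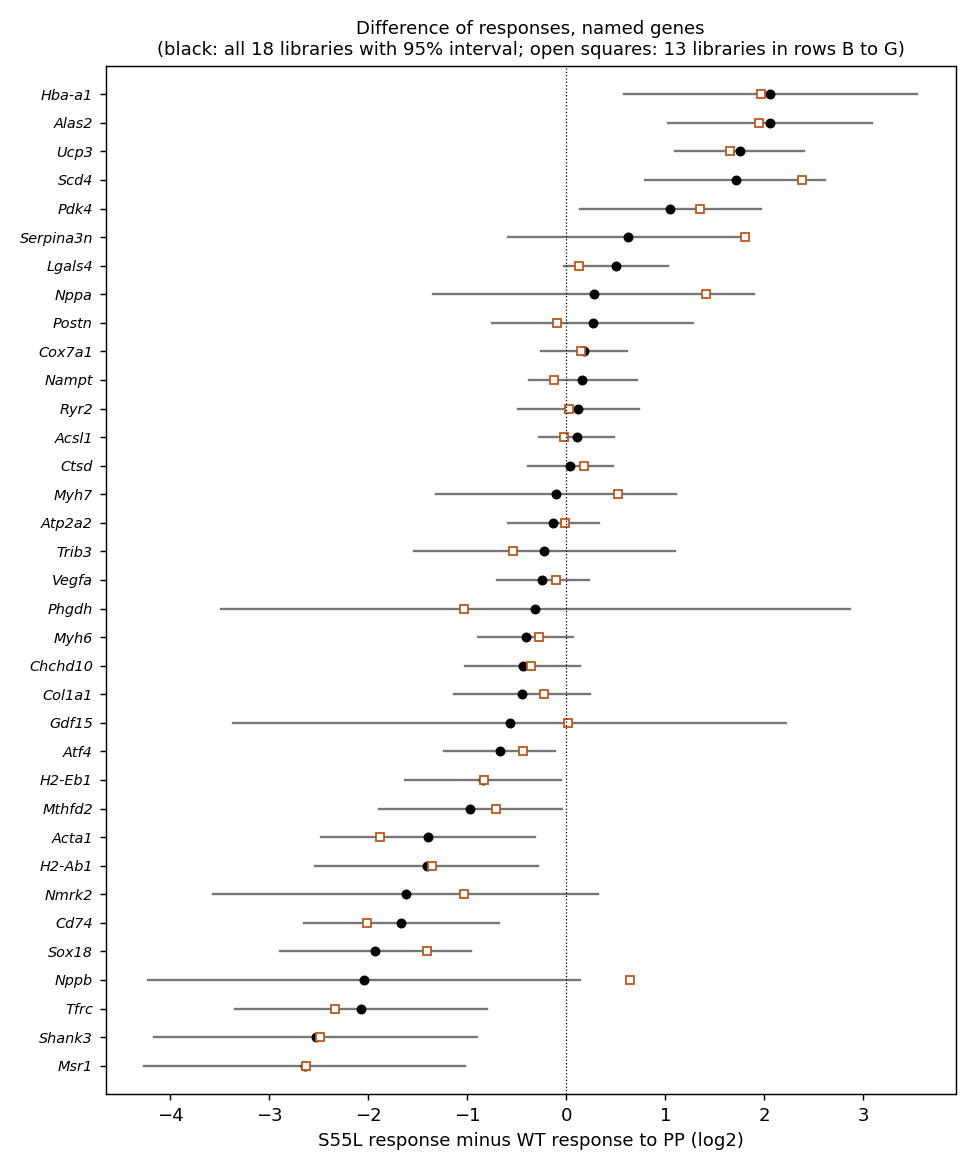
Difference of responses (S55L response minus WT response, log2) of each named gene with an estimate, as a black point with its 95% confidence interval over 18 libraries, and as an open square over the 13 libraries without the outer letters. Ucp3 lies at 1.75 and 1.65, while Nppb moves from -2.04 to 0.64.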

How the data were processed

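Hearts were profiled with the Lexogen QuantSeq 3' mRNA FWD kit from 500 ng of RNA, per the labels' protocols. The authors deposited unnormalized counts of reads for each gene. The submitters' processing notes name Trimmomatic 0.39, STAR 2.7.0f, HTSeq 0.6.1, DESeq2 3.21 and the build GRCm39.p6. The strand setting, HTSeq mode and annotation release are not given in the sources used here, so counts of genes that overlap, lie antisense or have near-identical copies are uncertain. HTSeq summary lines (17.5% to 27.3% multi-mapped, 5.65% to 10.1% on no gene, 4.45% to 7.08% on several) stayed out of library sizes and tests. Symbols were found for 51487 of 78258 gene IDs, holding 99.4% of reads on genes, in GENCODE M21, and no coordinates were taken from the count table.

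The counts of 18 libraries were filtered by group (filterByExpr), scaled by trimmed means and fitted with edgeR 4.0.16 (glmQLFit, robust) in R 4.3.3 over 4 groups. Contrasts were tested with the quasi-likelihood test, Benjamini-Hochberg adjustment over 11945 genes and a threshold of 0.05. The common biological coefficient of variation was 0.199. Standard errors and 95% intervals are Wald values from the fitted dispersions. They cover the spread between libraries, and PCR copies cannot be told from molecules here. The script was tested on simulated data.

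The comparison, its gene lists and the named genes were chosen with earlier results of these data known. Named were genes called in the interaction (none were), a panel of 30 genes, 1 of which is not reported here, and the 5 genes with the lowest p. Tfrc, Hba-a1, Shank3, H2-Ab1 and H2-Eb1, and list members with an unadjusted p below 0.05, were added after their values were seen. Lists were described by counts and medians without a set test. Of their symbols, 3 matched no gene, and the neutrophil list and the liver, lung and thymus list had no member tested.

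Alternatives were the DESeq2 1.42.0 test, limma 3.58.1 voom with quality weights, scaling by DESeq2 size factors or by total counts, testing without the filter or without mitochondrially encoded genes, thinning to the smallest library, the column code's number or an outer letter as a term, the title number as a replicate block, all 20 columns, no library deposited in 2 columns, and each library left out. Leaving out the 5 outer-letter libraries was added after seeing the data. Same-numbered libraries deviated together from their group means with every correlation over 0.1 between WT PP and S55L PP (r 0.128 to 0.343, 4 pairs), and with r 0.029 to 0.236 between WT PP and S55L naive (4 pairs). The other 4 pairs of groups each held a negative correlation. Between WT PP and S55L PP, r was 0.338 for number 1 (both letter A) and 0.343 for number 5 (both letter H). It was 0.128 and 0.143 for numbers 3 and 4. WT naive 1, also letter A, had r 0.374 with WT PP 1 and 0.221 with S55L PP 1. No label says what the title numbers stand for, and the part of the letters was not tested.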

Additional observations from a re-analysis of the deposited data

Results flagged for a closer look

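A library standing far from the others of its group was looked for in 148 sets of values. A set was a named gene, or the share of reads on mitochondrially encoded genes, in 1 group of 4 or 5 libraries. By Dixon's test at the 95% level 10 sets (6.76%) had one, where chance gives about 1 in 20. The sets of Fgf21 in WT, at 0 CPM throughout, were counted but could not be flagged. WT PP 5 accounts for 4 of the 10. It was the highest WT PP library for Nppb (906.9 CPM, next 121), Gdf15 (2.87, next 0.725), Ctsd (974, next 762) and Serpina3n (11.5, next 3.35). WT PP 1 was the lowest of its group for Tfrc (25 CPM, next 194), and WT PP 3 for Scd4 (3.35 CPM, next 7.89). In S55L PP, library 1 was the lowest for Myh6 (7000 CPM, next 8290) and library 5 the highest for Cd74 (9.66 CPM, next 8.76). In WT naive, library 1 was the lowest for Mthfd2 (0 CPM, next 2.92), and library 5 for Shank3 (7.92 CPM, next 24.5).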

How the results depend on the processing

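The count of 0 genes called in the difference of responses became 5 without the filter on low counts (Shank3, Cd74, Ucp3, Sox18 and Scd4), 1 with the DESeq2 test (Ucp3), 2 with the number of the column code as a term (Tfrc and Ucp3), 2 with an outer letter as a term (Ucp3 and Hba-a1), 3 without both libraries deposited in 2 columns (Tfrc, Ucp3 and Sox18) and 2 without the 5 outer libraries (Tfrc and Acta1). It remained 0 under the other 8 alternatives and was 0 to 2 with each library left out. The WT response count of 2 became 21 without the filter, 12 with DESeq2, 21 with the column number as a term, 21 without both libraries deposited in 2 columns and 6 without the outer libraries, and was 2 to 10 with each library left out, 10 being without WT PP 1. The S55L response count of 0 became 3 with total counts, 37 without the filter, 18 with DESeq2, 20 with voom, 1 with the column number, 2 with an outer letter as a term, 13 with the replicate block under the higher numbers, 10 with all 20 columns and 8 without the outer libraries, and was 0 to 4 with each library left out. With the title number as a replicate block the interaction had 0 calls (lowest adjusted p 0.11, edgeR), and 0 (0.14) with the higher numbers for the libraries deposited in 2 columns. With the column number as a term the S55L response rests on S55L PP 5 alone and the WT response on WT PP 3, 4 and 5, so its values stand for those libraries and not for an adjustment. The causes of the other changes were not tested.

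The sign of the difference of responses changed without the outer libraries for Nppb (0.64), Myh7 (0.52), Gdf15 (0.02), Nampt (-0.12), Acsl1 (-0.02) and Postn (-0.09). It changed with the column number as a term for Nppa (-0.13), Trib3 (0.64), Cox7a1 (-0.22) and Ryr2 (-0.69), with voom for Myh7 (0.18), Postn (-0.07) and Atp2a2 (0.02), without both libraries deposited in 2 columns for Trib3 (0.01), without the filter for Ctsd (0) and with all 20 columns for Phgdh (0.19). With each library left out, values that changed sign ranged over -0.02 to 0.15 for Ctsd, -1.2 to 0.42 for Gdf15, -0.44 to 0.27 for Myh7, -0.95 to 0.58 for Phgdh, -0.05 to 0.33 for Ryr2, -0.48 to 0.23 for Trib3 and -2.09 to 0.517 percentage points for the mitochondrial share. That share's difference was -0.881 points with all 20 columns, -0.234 without the outer libraries and -0.159 as log2 of the share. On the CPM scale, 440 of the 444 genes with an unadjusted p below 0.05 kept their sign, and Mthfd2 (17 CPM) did not. Of the other panel genes, Gdf15 (46.4 CPM), Nmrk2 (40.2), Trib3 (2.41), Phgdh (1.63), Myh7 (245), Ryr2 (-15.2) and Ctsd (-35.1) also had opposite signs on the log2 and CPM scales. The planned count over called genes was not run because none was called. Depth limits genes below 5 CPM most.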
